A study of Rattus norvegicus with 109 samples.

Results

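Rgs4, which encodes regulator of G protein signalling 4, is 1 of the 19 genes assayed by quantitative PCR in tissue cut with a laser from the nucleus of the solitary tract (NTS) of rats, and it was taken by its gene name (transcript NM_017214 in the deposited table). All sections were used, from the hypertensive strain SHR (spontaneously hypertensive rat) and its normotensive control strain WKY (Wistar Kyoto), which were matched for an age that is not given. For "Cocktail", 25 uL of artificial cerebrospinal fluid with locked nucleic acids against miR-135a and miR-376a (1:1, 10 uM) was injected. For "Scrambled" the locked nucleic acid matched no known transcript, and for "Sham" a needle without fluid was placed through the cannula. All groups therefore had surgery, and rats without surgery were not analysed here. By the animal numbers, the WKY groups held 4 Cocktail rats (27 sections), 5 Scrambled rats (15 sections) and 3 Sham rats (8 sections). The SHR groups held 5 Cocktail rats (17 sections), 2 Scrambled rats (15 sections) and 1 Sham rat (27 sections). Rat number 4614 stands under both WKY Cocktail and WKY Scrambled, and its 2 sets of sections were counted as separate rats. The design text names 4 to 5 rats per group, which these numbers do not match.

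RGS proteins speed the hydrolysis of GTP by activated G protein alpha subunits and so shorten signalling from G protein-coupled receptors. Rgs4 acts on subunits of the Gi and Gq classes, is abundant in brain neurons, and can dampen signalling from the angiotensin II type 1 receptor, which the Agtr1a gene of the same panel encodes. The NTS is the first brainstem relay of baroreceptor input, and it holds catecholaminergic neurons that express Th and Dbh, the enzymes of dopamine and noradrenaline synthesis. In GRCr8, the RefSeq assembly, Rgs4 is a protein-coding gene at chr13:84469593-84475884. No other RGS gene or G protein partner of 20 looked for was on the panel. Of 22 markers of neurons, noradrenergic neurons, glia and endothelium, only Th and Dbh were measured, so the cell make-up of the sections was not tested. In such tissue sections, fewer cells that express Rgs4 and less Rgs4 RNA per cell cannot be told apart.

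The 2 microRNAs that the Cocktail was directed at are shown as their mature RefSeq sequences from GRCr8, 5′ to 3′, with the seed (bases 2 to 8) in capitals, because they define the treatment. The labels do not say which arm each inhibitor covers, so both arms are given. The 4 arms have 4 different seeds. Whether Rgs4 carries a site for them was not examined.
rno-miR-135a-5p: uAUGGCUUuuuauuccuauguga
rno-miR-135a-3p: uGUAGGGAuggaagccaugaaa
rno-miR-376a-5p: gGUAGAUUcuccuucuaugag
rno-miR-376a-3p: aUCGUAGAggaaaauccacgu
The miR-135a arms lie at chr7:28499221-28499243 and chr7:28499183-28499204 on the minus strand. The miR-376a arms lie at chr6:134559383-134559403 and chr6:134559421-134559441 on the plus strand.

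Rgs4 had a value in every section (exact Clopper-Pearson 95% interval of the share 96.7% to 100%, counting error only), and it was 1 of 4 genes with none missing. Levels are the authors' normalised values, minus ΔCt in log2 units, so that more RNA gives a higher value and 1 unit is a doubling if product doubles each cycle. Across sections the level ran from -4.85 to 7.99 with a median of 0.56. In WKY the 50 sections lay between -2.41 and 7.99 (median 2.29), and 4 of them were below 0. In SHR the 59 sections lay between -4.85 and 2.999 (median -0.15), and 33 were below 0. Its raw cycle number (Ct) ran from 7.31 to 23.5, all within the 30 cycles. To normalise a section, the authors subtracted a constant, which equalled the section's median Ct over the 19 genes for all 59 SHR sections but for only 1 of the 50 from WKY. Rgs4 was itself that median in 5 SHR Sham sections, whose value is exactly 0.

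Rat by rat, the WKY Cocktail means of Rgs4 were 2.77 (rat 1701, 6 sections), 1.97 (rat 4607, 9 sections), 2.06 (rat 4612, 7 sections) and 3.99 (rat 4614, 5 sections). The WKY Scrambled means were 2.97 (rat 1700), 2.98 (rat 4610), 2.84 (rat 4614), 1.61 (rat 4615) and 2.05 (rat 4618), from 2 to 4 sections each. The WKY Sham means were -0.83 (rat 4611), 2.75 (rat 4613) and 1.67 (rat 4617). Rat 4611, with 2 sections at -2.41 and 0.76, was thus the only WKY rat below 1. The SHR Cocktail means were 1.65 (rat 1694, 4 sections), -0.56 (rat 1696, 2 sections), 0.06 (rat 4595, 9 sections), 0.06 (rat 4598, 1 section) and 0.24 (rat 4602, 1 section). The SHR Scrambled rats were at -1.55 (rat 4600, 14 sections) and -2.48 (rat 4604, 1 section), and the SHR Sham rat 4596 was at -0.42 over 27 sections. The strains overlapped: 10 of 12 WKY sets lay above every SHR rat, and WKY rats 4615 and 4611 did not, being below SHR rat 1694. Of the 8 SHR rats, 7 lay below all WKY sets but that of rat 4611.

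**Figure D1:**
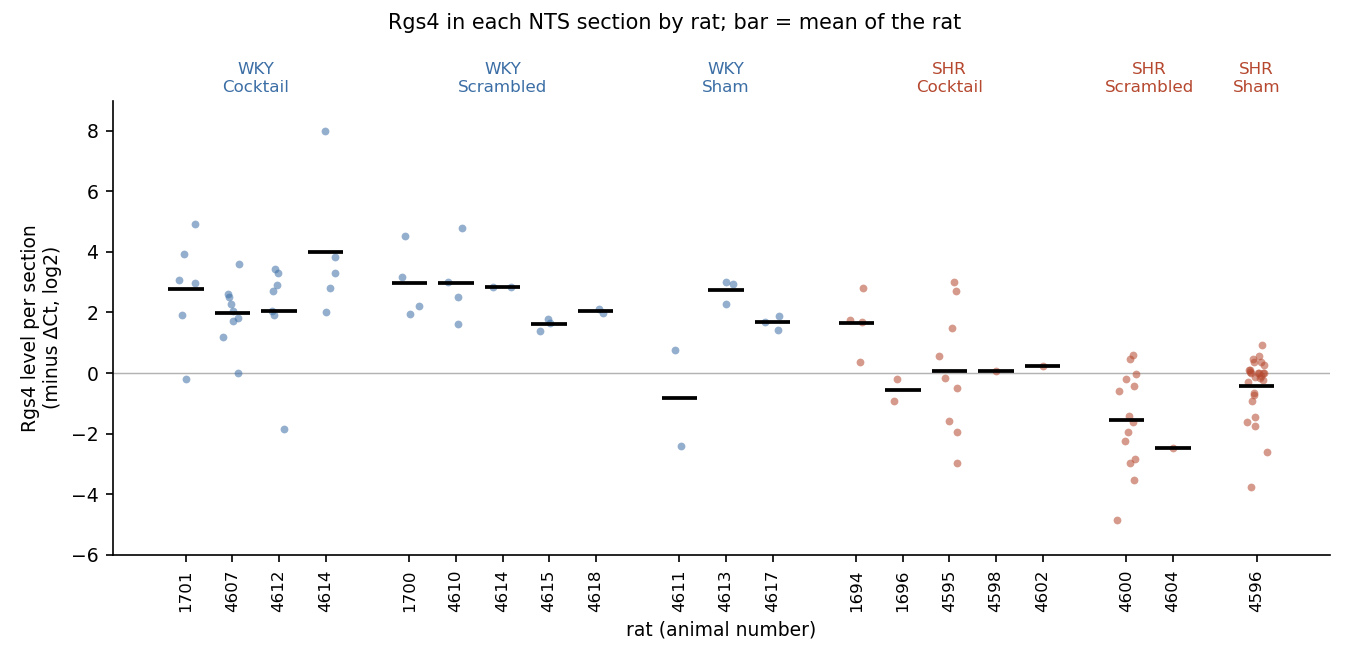
Rgs4 level (minus ΔCt, log2) of each section as a point, by rat, with the mean of the rat as a bar, in blue for WKY and red for SHR. The WKY rat means lie between -0.83 and 3.99 and the SHR rat means between -2.48 and 1.65, with sections of 1 rat spread over several log2 units.

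In order of group means, Rgs4 was highest in WKY Cocktail (2.70 ± 0.93, SD, n = 4 rats), then WKY Scrambled (2.49 ± 0.63, SD, n = 5) and WKY Sham (1.20 ± 1.83, SD, n = 3). SHR Cocktail (0.29 ± 0.82, SD, n = 5), SHR Sham (-0.42, n = 1) and SHR Scrambled (-2.01 ± 0.66, SD, n = 2) followed. WKY Sham and SHR Cocktail, neighbours in this order, overlapped. The other neighbours, which are groups of 1 strain, did not differ in limma's test on rat means. Apart from rat 4611, the WKY Sham rats were at 2.75 and 1.67, within the range of the other WKY rats.

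The strain comparison asks how the NTS of the hypertensive rats differs from that of its control strain. Rgs4 was lower in SHR than in WKY after Cocktail, 5.31-fold (log2 difference -2.41, standard error 0.65, limma, Benjamini-Hochberg adjusted p = 0.00674 over 19 genes). After Scrambled it was 22.7-fold lower (log2 difference -4.50, standard error 0.82, limma adjusted p = 0.000128). As the mean of the 3 procedures it was 7.17-fold lower (log2 difference -2.84, standard error 0.51), with a 95% interval from -3.92 to -1.76 (limma adjusted p = 0.000121). In these comparisons limma called 36.8%, 42.1% and 52.6% of the 19 genes, respectively. After Sham, the difference was -1.61 with a 95% interval from -3.98 to 0.76 (limma adjusted p = 0.357, 21.1% of genes called), which sets 1 SHR rat, assumed to vary like the others, against 3 WKY rats. That value was -2.63 without WKY rat 4611 (limma adjusted p = 0.0592) and -0.84 without WKY rat 4613 (limma adjusted p = 0.573).

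An exact permutation test of rats after Cocktail gave p = 0.0159 for Rgs4 (adjusted p = 0.0335). After Scrambled, where 2 rats stand against 5, the exact permutation p was 0.0476, the smallest it can be (adjusted p = 0.181). The Cocktail call held without any 1 rat, with differences from -2.75 to -1.98, and was lost with raw Ct (-0.85, limma adjusted p = 0.605). The mean of the section median Ct was 13.7 in SHR Cocktail rats and 15.3 in WKY Cocktail rats, and its part in the raw difference was not tested. Strain and chip or run cannot be told apart, because the labels name chips of 2 kinds but none for a section.

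Set against single genes of the same section, which needs no section constant, Rgs4 was also lower in SHR. Relative to Actb, the beta-actin reference transcript, Rgs4 was at -4.60 ± 0.91 (SD, n = 4) in WKY Cocktail and -6.78 ± 1.21 (SD, n = 5) in SHR Cocktail (limma adjusted p = 0.0206). In WKY Scrambled it was at -5.11 ± 0.75 (SD, n = 5) against -9.03 ± 0.66 (SD, n = 2) in SHR Scrambled (limma adjusted p = 0.00234). After Sham, with 1 SHR rat, the strain difference relative to Actb was -2.27. More WKY rats fell within the SHR range on this scale, 6 of 12. Relative to EiF4e, which encodes the cap-binding translation factor, 11 of 12 WKY sets lay above all SHR rats, the exception being rat 4611, at -3.71. The scale of EiF4e alone was not tested. Actb and EiF4e themselves differed between strains after Cocktail by -0.23 and 0.19 (limma adjusted p = 0.760 and 0.764). After Scrambled they differed by -0.57 and -0.42 (limma adjusted p = 0.359 and 0.418), and after Sham, with 1 SHR rat, by 0.65 and -0.64. After Cocktail, the strain difference of Rgs4 was more negative than that of 14 of the 17 other genes reported here, with Ace, Agtr1a and Jun beyond it. After Scrambled it was more negative than that of 16, with Jun beyond it.

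**Figure D2:**
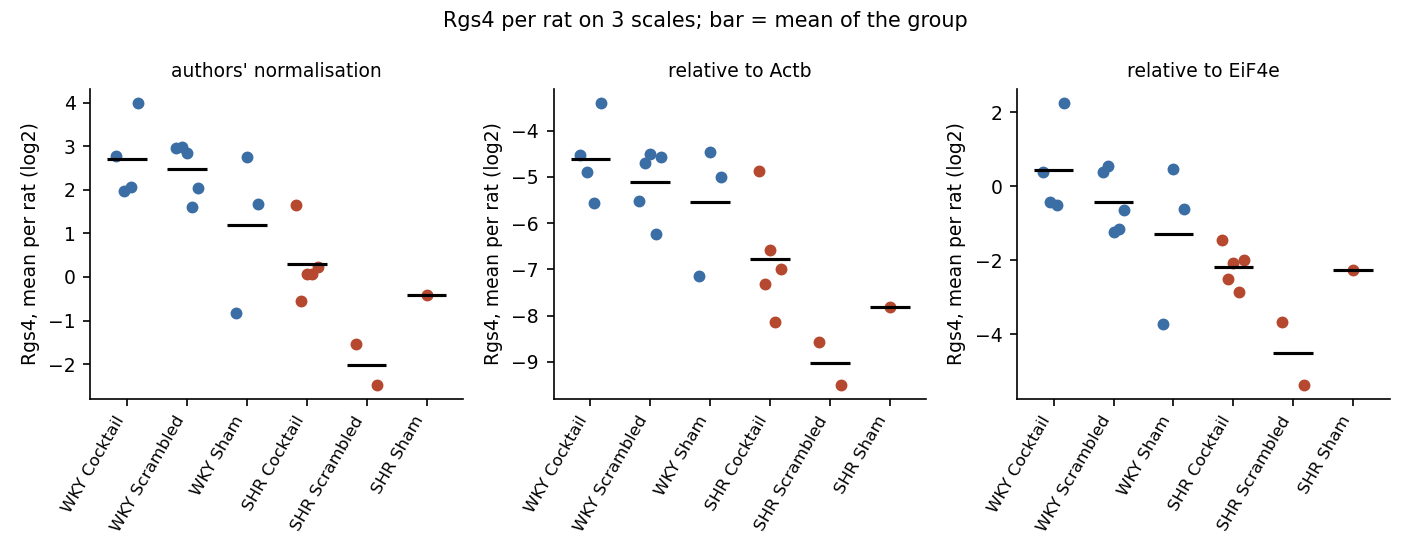
Mean Rgs4 per rat (log2) as points, with the group mean as a bar, in the authors' normalisation, relative to Actb and relative to EiF4e. On each of the 3 scales SHR Scrambled has the lowest group mean and WKY Cocktail the highest, and WKY Sham holds 1 rat far below its other rats.

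Cocktail was compared with Scrambled to see whether inhibition of the microRNAs went with a change of Rgs4. In SHR the 5 Cocktail rats, from -0.56 to 1.65, all lay above the 2 Scrambled rats at -2.48 and -1.55. The log2 difference of 2.31 (standard error 0.82) did not pass after adjustment (limma adjusted p = 0.0723, with 10.5% of genes called), and the exact permutation p was 0.0476, the smallest possible for 5 against 2 rats (adjusted p = 0.452). Among positive differences of the genes reported here, only those of Dbh (2.80, limma adjusted p = 0.175) and Agtr1a (2.41, limma adjusted p = 0.0331) were larger. Among negative ones, Ptgs2 (-4.04), Il1b (-2.43) and Fos (-2.41), named after their values were seen, were larger in size. The value lay between 1.84 and 2.77 when any 1 rat was left out. It passed when rats were weighted by their number of sections (1.99, limma adjusted p = 0.0172), a setting in which rat 4600 weighs most on the Scrambled side. The Scrambled rat 4604 had a single section.

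In WKY, Rgs4 was 0.21 higher on the log2 scale after Cocktail than after Scrambled, with a 95% interval from -1.17 to 1.59 (limma adjusted p = 0.872), and the rats of the groups overlapped. Limma called 0% of the 19 genes there, and an unadjusted p under 0.05 was reached by 0 genes. Without the Cocktail set of rat 4614 the difference was -0.22. The response of Rgs4 in SHR exceeded that in WKY by 2.09 on the log2 scale (95% interval from -0.11 to 4.29), which did not pass (limma adjusted p = 0.298, 0% of genes called, 2 genes at an unadjusted p under 0.05). Among the genes reported here it was the highest of the positive differences, and 4 negative ones were larger in size, from -2.24 (Fos) to -4.96 (Il1b).

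Against Sham surgery, Rgs4 after Cocktail was 1.504 higher in WKY (95% interval from -0.06 to 3.07, limma adjusted p = 0.631) and 0.71 higher in SHR (95% interval from -1.54 to 2.96, limma adjusted p = 0.999). After Scrambled it was 1.29 higher than after Sham in WKY (95% interval from -0.21 to 2.79, limma adjusted p = 0.278) and had a difference of -1.59 in SHR (95% interval from -4.11 to 0.92, limma adjusted p = 0.774). Each of these 4 comparisons had 0% of genes called by limma. An unadjusted p under 0.05 was reached by 0 genes for Cocktail against Sham in either strain, and for Scrambled against Sham by 2 genes in WKY and 1 in SHR. Without Sham rat 4611, the WKY values for Rgs4 were 0.49 and 0.28, and without Sham rat 4613 they were 2.28 and 2.07 (limma adjusted p = 0.173 and 0.129). In SHR the Sham side is 1 rat, and its level of -0.42 lay above both Scrambled rats and within the range of the Cocktail rats.

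**Figure D3:**
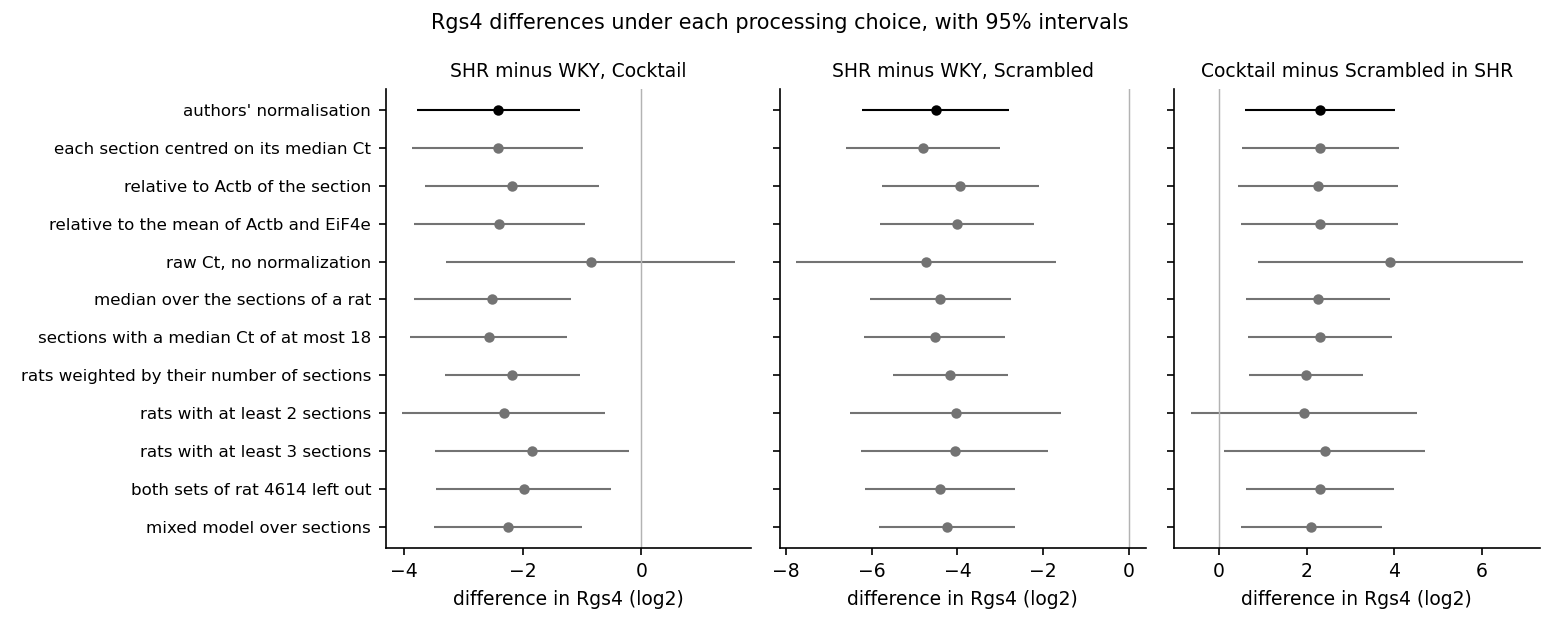
Differences in Rgs4 (log2) with 95% intervals under each processing choice, for SHR minus WKY after Cocktail, SHR minus WKY after Scrambled, and Cocktail minus Scrambled in SHR, with the authors' normalisation at the top in black. The direction is the same in every setting drawn, and the interval reaches across 0 for raw Ct in the Cocktail panel and for rats with at least 2 sections in the Cocktail minus Scrambled panel.

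Most of the spread of Rgs4 lay between sections of 1 rat. A mixed model gave a standard deviation of 1.42 between sections of a rat and of 0.62 between rats of a group, so 83.9% of the variance within groups was between sections. This is not particular to Rgs4, since the share ran from 59.8% to 100% over the 18 genes reported here. Among the 18 genes reported here, Rgs4 had rank 10 from the lowest in its section standard deviation, with Actb lowest (0.88), EiF4e at 1.11, Agtr1a at 1.33, Th at 1.87 and Dbh at 2.02. The section position along the NTS is not given in the labels. Within SHR rat 4595 the 9 sections ran from -2.99 to 2.999, and within rat 4600 the 14 sections ran from -4.85 to 0.59. Rat 4596 was tighter over more sections, from -3.78 to 0.92 with a standard deviation of 1.03. WKY rats 4615, 4613 and 4617, with 3 sections each, had standard deviations of 0.21, 0.39 and 0.24. WKY Cocktail rats 4614, 4612 and 1701 were wider, at 2.34, 1.82 and 1.77, against 2.07 in SHR rat 4595 and 1.62 in SHR rat 4600.

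Among rats with at least 3 sections, the standard deviation over sections averaged 1.43 ± 0.51 in the 4 SHR rats and 1.14 ± 0.76 in the 9 WKY sets (mean ± SD), and the difference of 0.29 did not pass (exact permutation p = 0.495, two-sided). This changed when sections of late amplification were left out. A section's median Ct was above 18 in 9 sections, all from WKY rats, and Rgs4 was below the mean of its rat in 6 of these and above it in 3, from -1.85 to 7.99. These hold both the highest WKY section (7.99, rat 4614) and 3 of the 4 WKY sections below 0. Without them the WKY rats averaged 0.63 ± 0.29 (SD, n = 7), and the difference of 0.80 passed (exact permutation p = 0.00909). In the 6 rats with at least 6 sections, Rgs4 correlated with the section's median Ct at r from -0.90 (rat 4612) to 0.02 (rat 4595), a description over 6 to 27 sections. Pooled over 17 rats, r was -0.18 (106 sections). The value of rat 4612 includes section WC21 (Rgs4 -1.85, median Ct 22.5), flagged below as standing apart, and was not computed without it.

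The relation of Rgs4 to each other gene within rats was described over sections, after subtracting the mean of each rat. Sections share their rat, their RNA input and the constant of normalisation, so these correlations carry no p. The 3 highest were with Dbh (r = 0.54 over 93 sections of 17 rats), EiF4e (r = 0.51, 106 sections) and Th (r = 0.35, 100 sections). The lowest were Il1a, a pro-inflammatory cytokine gene (r = -0.28, 103 sections), Ace, the gene of angiotensin-converting enzyme (r = -0.13, 106 sections), and Agtrap, whose protein binds the angiotensin receptor (r = -0.11, 102 sections). In all, 10 of the 17 genes had r above 0, and 2 had an r beyond 0.5 in size. On raw Ct all 17 were above 0, from 0.41 to 0.90. Il1a, Ace and Agtrap were at -0.25, 0.03 and 0.11 by Spearman's rho. Relative to Actb they were at -0.04, 0.22 and 0.09, so only Il1a stayed below 0 in both settings.

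The relation to EiF4e was above 0 in each of the 6 rats with at least 6 sections, from 0.45 (rat 4600) to 0.91 (rat 1701). Jun and Ptgs1, named after their values were seen, were the other genes above 0 in each rat that could be tested. Dbh was above 0 in 5 of these rats, with 0.97 in rat 1701 and 0.96 in rat 4595 and the exception of rat 4600 (-0.05, over 6 sections). Without the 9 sections of late median Ct, r was 0.59 for Dbh, 0.47 for EiF4e, 0.10 for Th and 0.31 for Agtr1a. Of the lowest genes, Il1a was then at -0.19, and Ace (0.23) and Agtrap (0.30) were above 0. This setting, and each strain alone, were chosen after the values were seen. Within WKY rats, Th and Rgs4 had r = 0.73 over 50 sections, and within SHR rats r = 0.00 over 50 sections, and the WKY value was 0.46 over 41 sections without the late ones. Dbh and Rgs4 had r = 0.38 in WKY (48 sections) and 0.67 in SHR (45 sections). EiF4e and Rgs4 had r = 0.42 in WKY (50 sections) and 0.61 in SHR (56 sections). The WKY value for EiF4e was 0.19 over 41 sections without the late ones. Jun and Rgs4 had r = -0.07 in WKY (50 sections) and 0.55 in SHR (49 sections). Ptgs1 and Rgs4 had r = -0.03 in WKY (44 sections) and 0.21 in SHR (56 sections). Over 41 sections without the late ones, the WKY values were 0.17 for Jun and 0.10 for Ptgs1. Values by rat include the late sections, which rats 1701, 4607 and 4612 hold, and were not computed without them.

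Agtr1a, the angiotensin receptor gene, had a pooled r of -0.05 with Rgs4 over 89 sections, with values of opposite sign in the strains on the authors' scale. In the 3 WKY rats with enough sections, r was -0.63 (rat 1701), -0.22 (rat 4607) and -0.36 (rat 4612), all of them Cocktail rats. In SHR, r was 0.79 (rat 4595, Cocktail), 0.67 (rat 4600, Scrambled) and 0.48 (rat 4596, Sham). Over all sections of a strain, r was -0.55 in WKY (49 sections) and 0.57 in SHR (40 sections). The WKY value was -0.23 over 41 sections without those of late median Ct, and rat 4600 had an Agtr1a value in only 6 of its 14 sections. On no other scale were the signs opposite in all of these rats. Relative to Actb, the WKY rats ran from -0.23 to 0.10 and the SHR rats from 0.55 to 0.89, and on raw Ct they ran from 0.78 to 0.97 and from 0.61 to 0.87. The difference between strains was not tested.

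**Figure D4:**
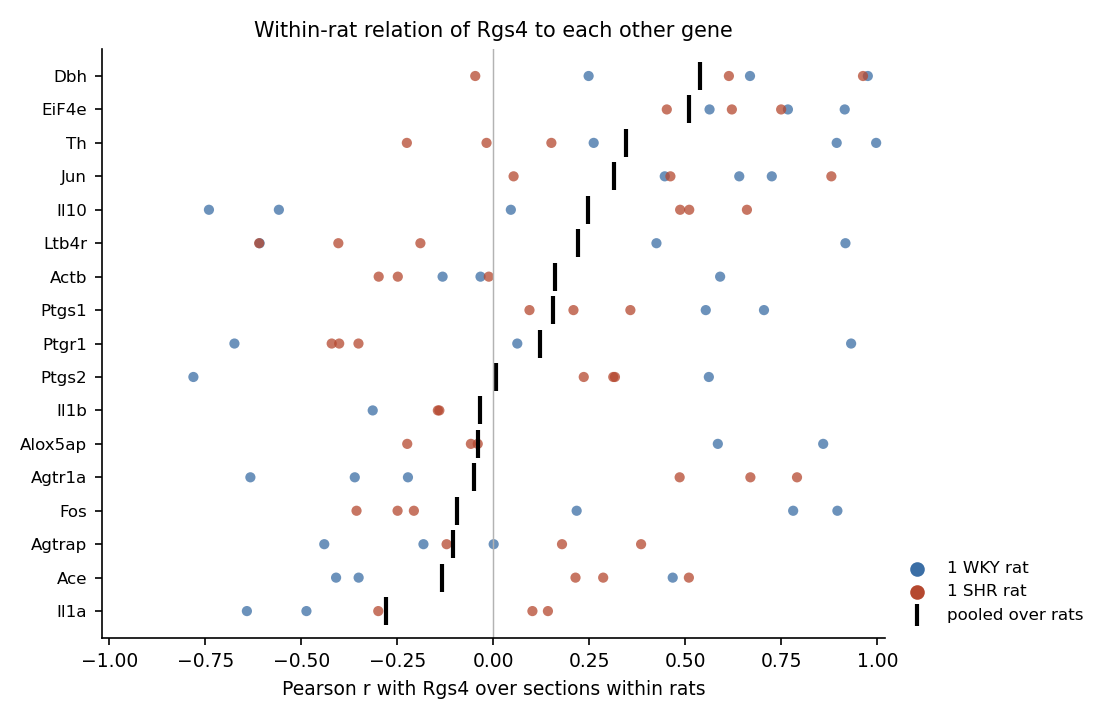
Pearson r of Rgs4 with each other reported gene over the sections of a rat, for rats with at least 6 sections where both genes have a value (blue WKY, red SHR), and pooled over all rats (black mark), sorted by the pooled value. EiF4e is to the right of 0 in each of 6 rats, and for Agtr1a the 3 WKY rats lie left of 0 and the 3 SHR rats right of it.

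Across rats the relation of Rgs4 to these partners was computed within each strain, because the strains differed in the mean of Rgs4 and Agtr1a, although their rats overlapped. In SHR, Rgs4 and Agtr1a had r = 0.76 (permutation p = 0.0257, adjusted p = 0.154) and rho = 0.83 (permutation p = 0.0154, adjusted p = 0.0923) over 8 rats, exact over all orderings and adjusted over 6 relations. The value was r = 0.81 over the 6 rats left without the 2 farthest in Agtr1a. The 2 Scrambled rats were the lowest for both genes, at -7.45 and -6.48 for Agtr1a, and the part of the procedure in this relation was not tested. The Agtr1a mean came from 6 of 14 sections in Scrambled rat 4600 and from 20 of 27 in Sham rat 4596. SHR rats 4598, 4602 and 4604 had 1 section each. In WKY the same relation had r = 0.05 (permutation p = 0.784) and rho = 0.11 (permutation p = 0.734) over 12 sets, and r = 0.42 over the 10 left without the 2 farthest. For Dbh, r was 0.44 in SHR (exact permutation p = 0.280) with rho 0.43 (p = 0.299), and 0.23 in WKY (permutation p = 0.497) with rho 0.16 (p = 0.617). For Th, r was 0.12 in SHR (exact permutation p = 0.772) with rho 0.10 (p = 0.840), and 0.36 in WKY (permutation p = 0.251) with rho 0.55 (p = 0.0665). Without the 2 farthest rats, r was 0.39 and 0.36 for Dbh and -0.37 and 0.30 for Th, in SHR and WKY. After adjustment 0 of the 6 relations passed in these permutation tests, by r or by rho, and 1, that of Agtr1a in SHR, had an unadjusted p under 0.05. With medians over sections in place of means, its rho was 0.88 (exact permutation, adjusted p = 0.0435). In that setting its r was 0.78 and did not pass (exact permutation, adjusted p = 0.107), and r was 0.60 over 6 rats without the 2 farthest.

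**Figure D5:**
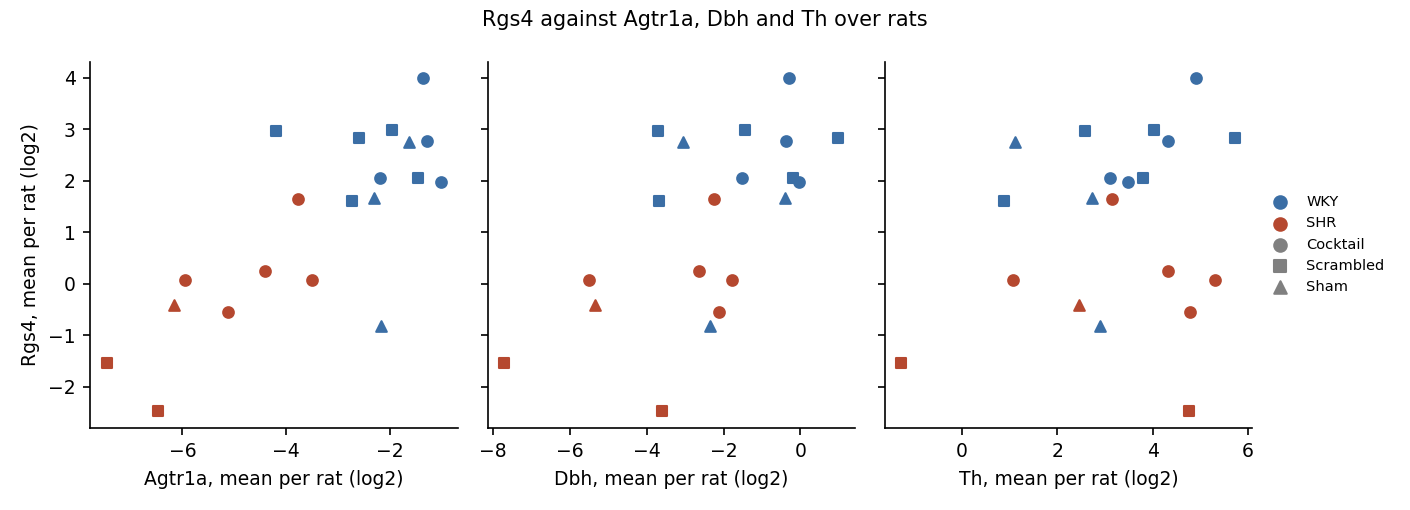
Mean Rgs4 per rat against mean Agtr1a, Dbh and Th (log2), with WKY in blue and SHR in red and the procedures as symbols. The 2 SHR Scrambled rats are lowest for both Rgs4 and Agtr1a, and the WKY sets lie at higher Agtr1a than the SHR rats except Scrambled rat 1700 (-4.19), and mostly at higher Rgs4.

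Between the strains, Agtr1a differed in the same direction as Rgs4 after Cocktail (-3.09, limma adjusted p = 0.000176) and after Scrambled (-4.38, limma adjusted p = 7.84e-05). Dbh differed by -2.30 (limma adjusted p = 0.0879) and -4.04 (limma adjusted p = 0.0151), and Th by -0.23 (limma adjusted p = 0.887) and -1.67 (limma adjusted p = 0.339).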

How the data were processed

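The authors deposited a table of normalised values, minus ΔCt on a log2 scale, and a table of raw Ct, treated here as a score, for 19 genes in each section. Per the labels' protocols, Ct came from Fluidigm's analysis software after 30 cycles on BioMark chips with EvaGreen. The sources used here do not give how the log2 values were normalised. The direction was found from the values, since each normalised section plus a raw section of the same rat was constant over genes within 1e-06. For 44 WKY sections this raw section had another name, so scales that combine both tables used the matched section. Depth is unknown for PCR, and 160 of 2071 values are missing, none of them for Rgs4. Rat means were fitted with limma 3.58.1 in R 4.3.3 over all 19 genes (6 groups, Benjamini-Hochberg, threshold 0.05), sections with lme4 1.1.37, and permutations with scipy 1.17.1 (every ordering for the 8 SHR rats, 100000 resamples for the 12 WKY sets). The fit was tested on simulated data. Rgs4, the gene lists and the tests were chosen with earlier results of these data known. Other genes are named if they are Agtr1a, Th, Dbh, Actb or EiF4e, or have 1 of the 3 highest or lowest pooled within-rat r. Jun, Fos, Il1b, Ptgs1, Ptgs2 and Alox5ap did not meet this rule and were named, wherever they appear, after their values were seen. The values of 1 gene in the fits are not reported here. All 19 names matched RefSeq.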

Additional observations from a re-analysis of the deposited data

Results flagged for a closer look

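Section WC21 of WKY Cocktail rat 4612 had an Rgs4 level of -1.85, far below the other 6 sections of that rat, which lay between 1.90 and 3.43. It stood out by its gap to the nearest section, 0.711 of the whole range against a critical value of 0.568. Its median Ct was 22.5. Of 11 sets of rat means or sections tested in this way, 1 stood out, where chance flags about 1 in 20. Sets with too few or too many values for the method were not tested, among them SHR rats 4600 (14 sections) and 4596 (27 sections). Section WC23 of WKY Cocktail rat 4614 was at 7.99, against 2.01 to 3.83 in the other sections of that rat, and was not flagged.

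For 3 genes, the within-rat correlation with Rgs4 had opposite signs in the WKY and the SHR rats with enough sections, and the difference was not tested. The mean r of SHR rats minus that of WKY rats was 1.05 for Agtr1a, -0.90 for Fos and -0.83 for Alox5ap, the last with 2 WKY rats. Fos and Alox5ap are named because their signs were seen to be opposite. Signs were opposite for 3 of 16 genes in the authors' normalisation, for 2 of 16 with each section centred on its median Ct or on the median of the other genes, for 2 of 15 relative to Actb and for 0 of 16 on raw Ct. Agtr1a and Fos were opposite on the authors' scale alone. For Agtr1a the highest WKY rat was at 0.00 with the median Ct, 0.10 relative to Actb, 0.23 with the median of the other genes and 0.97 on raw Ct.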

How the results depend on the processing

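No paired analysis was possible because the labels number only the sections within a group and the groups share 1 rat number (4614). Rgs4 kept its direction and its call in the strain comparison over the 3 procedures in each setting with a test that could change it and in 19 of 19 fits without 1 rat (-3.18 to -2.58). Filling in missing values cannot move Rgs4, which has none, fitting the compared groups alone repeats this fit, and the mixed model gives an interval but no adjusted p. After Cocktail, the call was lost with raw Ct (-0.85) and with rats of at least 3 sections (-1.84, added after the data were seen). It held in the other tests and without any 1 rat (-2.75 to -1.98). After Scrambled it was lost only in the exact permutation test of the same difference (-4.50), and values without 1 rat ran from -4.97 to -4.04. With rats weighted by sections the Sham difference was -1.87 with an adjusted p under the threshold, but the 27 sections of the 1 SHR Sham rat then stand for rats, so this shows nothing of the spread between SHR Sham rats. The unweighted values ran from -2.63 to -0.84 without 1 rat. Cocktail minus Scrambled in SHR passed with that weighting (1.99), in which sections of rat 4600 likewise stand for rats, and ran from 1.84 to 2.77 without 1 rat. The mixed model over sections gave 2.11 (unadjusted 95% interval from 0.51 to 3.71), and the unadjusted interval on rat means also lay above 0. In WKY this difference turned to -0.078 with sections centred on the median, to -0.011 with weights and to -0.13 without rat 4614, and ran from -0.22 to 0.45 without 1 rat, being -0.22 without the Cocktail set of rat 4614 and -0.0093 without Scrambled rat 4615. With raw Ct, the differences from Sham in WKY turned to -0.0023 for Cocktail and -0.043 for Scrambled. The relation to Agtr1a across WKY rats turned to -0.016 with centring on the median and to -0.044 without rat 4614. The strain difference in section spread passed without late sections (0.80), and ran from 0.08 to 0.44 without 1 rat. The section standard deviation was 2.92 on raw Ct. The number of genes with a within-rat r above 0 was 10 in the authors' scale and with the median Ct. It was 17 on raw Ct and 16 with the median of the other genes removed. Relative to Actb it was 15, with Actb itself left out because it has no value on that scale. By Spearman's rho it was 14, without late sections 11, and without any 1 rat 9 to 11. The differences from Sham without 1 rat ran from 0.49 to 2.28 for Cocktail and 0.28 to 2.07 for Scrambled in WKY, and from 0.37 to 0.92 and -2.06 to -1.13 in SHR. The difference of responses between strains ran from 1.63 to 2.56. The causes were not tested. The numbers of rats, 1 to 5 a group, limit the precision.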
